A study of Mus musculus with 15 samples.

Results

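The Hox genes were described in 15 aortas of atherosclerosis-prone mice, taken with and without diabetes and with and without the receptor RAGE. A Hox gene was counted where a probe set of the array was annotated to exactly 1 gene whose symbol was Hoxa, Hoxb, Hoxc or Hoxd followed by digits only. Of the 45037 probe sets tested, 48 met this rule, and they represented 33 genes out of 18193. Where a gene had several, the brightest one by its 15-array mean stood for it. The RefSeq gene table held 39 mouse Hox genes by the same pattern. Another 3 probe sets carried a pair of Hox genes each and were left out.

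All mice were male C57BL/6, lacked the lipoprotein ligand ApoE (ApoE-/-) and were killed at 9 weeks of age. Streptozotocin, which is toxic to the insulin-producing cells of the pancreas, was injected on 5 days from 6 weeks of age (65 mg/kg) to induce diabetes, and non-diabetic mice were given citrate buffer. The groups were diabetic Apoe null (replicates 1 to 4), non-diabetic Apoe null (5 to 8), diabetic Apoe/RAGE null (9 to 12) and non-diabetic Apoe/RAGE null (13 to 15), the last with 3 mice because cRNA could not be made from 1 sample. RAGE, encoded by Ager, is a cell surface receptor for advanced glycation end products. Apoe null mice came from Jackson labs and Apoe/RAGE null mice from a colony of another laboratory, so genotype and colony cannot be told apart. The tissue was the whole vessel from root to bifurcation, with every layer and whatever adhered to it, and the labels of replicates 1 and 2 add that roots were embedded for histology. In bulk RNA of this kind, fewer cells of a type and less RNA per cell cannot be told apart.

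Hox genes encode homeodomain transcription factors that set the identity of body segments along the head to tail axis. They lie in 4 clusters in the mouse, and genes at the same place in different clusters form a paralog group, numbered from 1 at the 3′ end to 13 at the 5′ end. Low-numbered, anterior genes are switched on first and nearest the head, and high-numbered, posterior genes later and nearer the tail. Adult smooth muscle cells, fibroblasts and fat cells keep part of the code of the segment they came from. Along the aorta the arch is known for low-numbered genes and the descending vessel for higher ones.

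Array medians lay between 4.35 and 4.42 on the log2 scale, and pairwise correlations of arrays between 0.972 and 0.997. All 8 smooth muscle, 6 endothelial and 6 fibroblast markers were above the brightness limit used below on every array. The same held for 7 of 7 brown adipocyte markers and 5 of 8 cardiac muscle markers, while 0 of 8 kidney and adrenal markers reached that limit in the mean. The dimmer Ager probe set did not separate the genotypes. The brighter one read 4.17 to 4.69 in Apoe null aortas, 4.63 and 4.48 in replicates 9 and 10, and 4.89 to 5.36 in replicates 11 to 15. Decr2, a gene whose level otherwise split the genotypes, read 5.32 to 6.01 in Apoe null and 6.84 to 6.98 in non-diabetic Apoe/RAGE null aortas. Among the aortas labelled diabetic Apoe/RAGE null it read 5.19 and 5.10 in replicates 9 and 10, against 7.40 and 7.56 in replicates 11 and 12. The brighter Zfp52 probe set read 7.08 to 7.81 in Apoe null aortas, 7.45 and 7.98 in replicates 9 and 10, and 5.83 to 6.80 in replicates 11 to 15. Replicates 9 and 10 thus went against their label by Decr2, Zfp52 and the brighter Ager probe set. Differences, counts and medians that rest on the diabetic Apoe/RAGE null group are followed by their values without these 2 arrays. Relations from array to array and within-group SDs use all 15 arrays unless stated otherwise.

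Of the 33 Hox genes, 16 had a mean at or above 4.37, the median of all probe sets, which served as the brightness limit, and 61.2% of all genes did. The other 17 lay under it, where differences on these arrays are compressed. The share depended on the place in the cluster. Of the anterior genes (paralog groups 1 to 3) 3 of 7 reached the limit, namely Hoxb2, Hoxa3 and Hoxb3. Of the central genes (groups 4 to 8) 10 of 12 did: Hoxa4, Hoxa5, Hoxa7, Hoxb4, Hoxb5, Hoxb6, Hoxc4, Hoxc6, Hoxc8 and Hoxd8. Of the posterior genes (groups 9 to 13) 3 of 14 did, all of group 9: Hoxa9, Hoxc9 and Hoxd9. None of the 10 genes of groups 10 to 13 reached it, and the highest mean among them was 3.53, for Hoxc10. By cluster the counts were 5 of 9 Hoxa, 5 of 9 Hoxb, 4 of 7 Hoxc and 2 of 8 Hoxd genes. Hoxa5, Hoxb2 and Hoxb3 also passed the 75th percentile of all probe sets, at 6.52. Because a probe set has its own affinity, these levels do not rank the genes by transcript number.

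**Figure D1:**
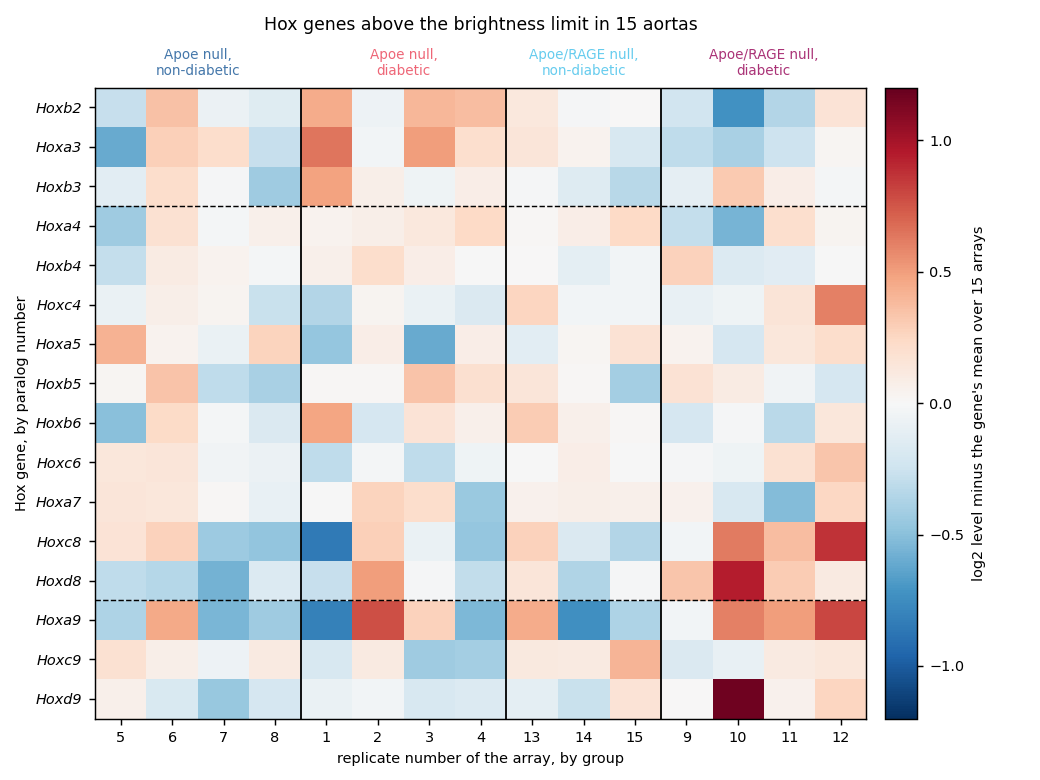
Log2 level of each of the 16 Hox genes at or above the brightness limit (rows, from low to high paralog number) minus the gene's mean over 15 arrays, for each array (columns, numbered by replicate and parted by group). Dashed lines part anterior, central and posterior genes. Hoxc8 and Hoxa9 change colour together from array to array, and replicate 10 is highest in Hoxd8 and Hoxd9.

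The RefSeq promoter table (GRCm38.p6) held windows for 19 of the 33 genes and for 8 of the 16 above the limit. The 250 bases before the start are printed for 5 genes that moved together or in opposite senses below: Hoxa3, Hoxa5 and Hoxa9 of 1 cluster, and the neighbours Hoxd8 and Hoxd9. Capitals mark matches to a motif on either strand. The motif TGACAG is bound by MEIS proteins, which are cofactors of Hox proteins. The letters TGATNNAT are those of Hox proteins bound together with PBX. CDX factors, which activate central Hox genes in the embryo, bind TTTATG. The TATA box was searched as TATAAA.
Hoxa3, chr6:52213068-52213317, minus strand: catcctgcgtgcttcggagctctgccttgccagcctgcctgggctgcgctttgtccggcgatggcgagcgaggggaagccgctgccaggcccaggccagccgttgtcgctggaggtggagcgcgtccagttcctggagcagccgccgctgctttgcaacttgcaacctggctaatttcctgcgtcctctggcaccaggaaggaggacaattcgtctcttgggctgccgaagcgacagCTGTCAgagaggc
Hoxa5, chr6:52204588-52204837, minus strand: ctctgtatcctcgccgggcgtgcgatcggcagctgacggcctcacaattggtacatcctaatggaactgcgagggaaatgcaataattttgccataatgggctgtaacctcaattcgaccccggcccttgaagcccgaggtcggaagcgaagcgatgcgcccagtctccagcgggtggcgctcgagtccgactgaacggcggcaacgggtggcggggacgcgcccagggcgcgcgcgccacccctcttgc
Hoxa9, chr6:52227371-52227620, minus strand: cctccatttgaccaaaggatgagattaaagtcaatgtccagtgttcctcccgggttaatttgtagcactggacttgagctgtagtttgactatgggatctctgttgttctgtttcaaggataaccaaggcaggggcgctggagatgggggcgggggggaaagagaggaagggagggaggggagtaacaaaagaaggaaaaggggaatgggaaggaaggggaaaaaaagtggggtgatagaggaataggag
Hoxd8, chr2:74704365-74704614, plus strand: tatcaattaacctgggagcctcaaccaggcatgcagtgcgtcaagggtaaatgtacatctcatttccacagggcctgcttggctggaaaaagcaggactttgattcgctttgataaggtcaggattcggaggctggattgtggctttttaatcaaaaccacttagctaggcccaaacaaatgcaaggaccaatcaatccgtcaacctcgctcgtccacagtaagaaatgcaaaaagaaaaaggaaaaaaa
Hoxd9, chr2:74697513-74697762, plus strand: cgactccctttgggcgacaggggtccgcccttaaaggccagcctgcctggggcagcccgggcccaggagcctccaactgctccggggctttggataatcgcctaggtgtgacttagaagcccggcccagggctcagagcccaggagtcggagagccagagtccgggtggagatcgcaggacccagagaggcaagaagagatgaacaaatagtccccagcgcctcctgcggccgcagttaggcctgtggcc
The Hoxa3 window held 1 MEIS motif, on the strand opposite to the one printed, and the other 4 windows held no match to any of the 4 motifs. By its coordinates the Hoxa3 window lies between those of Hoxa6 and Hoxa7. It thus belongs to an annotated start upstream of that of Hoxa5. The table held 24 Hox windows, of which 21 belonged to the 19 genes with a probe set and the others to Hoxa6, Hoxb8 and Hoxd4, which are not among the 33. Of all 24, 8.33% held the MEIS motif, against 15.9% of 32851 windows of the same length. The Hox and PBX motif stood in 16.7% of Hox windows and 7.68% of all windows, the CDX motif in 20.8% and 10.8%, and the TATA box in 16.7% and 12.4%. Over the 21 windows alone the shares were 9.52%, 14.3%, 14.3% and 9.52% in the same order. The CDX motif and the TATA box share letters and can overlap. The 24 Hox windows had a median GC content of 58.6%, against 52.4%, and a median of 12.5 CpG pairs, against 6.0.

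No Hox gene passed the limma test in any of the 4 comparisons of groups or in the interaction. With RAGE deleted in diabetes, the anterior Hoxb2 and Hoxa3 lay lower, and Hoxc8, Hoxc6, Hoxd8 and Hoxd9 lay higher, each with an unadjusted p under 0.05 and an adjusted p above 0.05. When replicates 9 and 10 were left out, Hoxb2, Hoxa3, Hoxd8 and Hoxd9 no longer had an unadjusted p under 0.05, while Hoxc8 and Hoxc6 did. Diabetes in Apoe null aortas went with higher Hoxa3 and lower Hoxa5 and Hoxc9 by the same measure. Without diabetes, RAGE deletion left 0 Hox genes with an unadjusted p under 0.05.

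These counts were read against all genes. For diabetes in Apoe null aortas, 0 of 33 Hox genes passed an adjusted p of 0.05, where 0% of all 45037 probe sets did, and the groups did not overlap for 1 of 33 (7.62% of all genes). An unadjusted p under 0.05 was found for 4 of 33 Hox genes, where 13.2% of all genes had one; the count was 1 without replicate 1 or 5, 2 without replicate 3, 7 without replicate 12 and 8 without replicate 6. For RAGE deletion without diabetes, 0 passed (0% of probe sets), 0 of 33 had such an unadjusted p (2.62% of genes), and 1 of 33 had groups that did not overlap (4.87%). For diabetes in Apoe/RAGE null aortas, 0 passed (0% of probe sets), 2 of 33 had an unadjusted p under 0.05 (7.71% of genes), and 0 had groups that did not overlap (6.68%). The count with an unadjusted p under 0.05 was again 2 without replicates 9 and 10 (4.24% of genes), with Hoxc8 in place of Hoxd8 beside Hoxc10, and 5 had groups that did not overlap (19.5%). Leaving out 1 array gave 0 without replicate 14, 1 without 10, 4 without 11 or 13 and 5 without 9. For RAGE deletion in diabetes, 0 passed, where 0.244% of probe sets did, and 8 of 33 had an unadjusted p under 0.05, where 17.9% of genes did. Of these 8, 6 were higher (6.62% of all genes) and 2 lower (11.3%), and without replicate 2 the count was 13. It was 7 without replicates 9 and 10, where 21% of all genes had such a p, and only 4 of the 8 were among the 7: Hoxc6, Hoxc8, Hoxc10 and Hoxb9. Hoxb2, Hoxa3, Hoxd8 and Hoxd9 dropped out, and Hoxc4, Hoxc9 and Hoxa11 came in. For the interaction, the difference between the diabetes effects of both genotypes, 0 passed (0% of probe sets), and 2 of 33, Hoxb2 and Hoxa3, had an unadjusted p under 0.05 (8.57% of genes). There were again 2 without replicates 9 and 10 (11% of genes), but these were Hoxc6 and Hoxd3. With 1 array left out the interaction count lay between 0, without replicate 5, and 6, without replicate 2. By limma's B above 0, the rule in the series' design text, 0 Hox genes were called in any comparison, where 0.169%, 0%, 0.00888%, 0.713% and 0% of probe sets were, in the order above. The Hox shares lay on both sides of those of all genes. The comparisons share arrays: the diabetic Apoe null arrays enter both diabetes in Apoe null and RAGE deletion in diabetes.

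**Figure D2:**
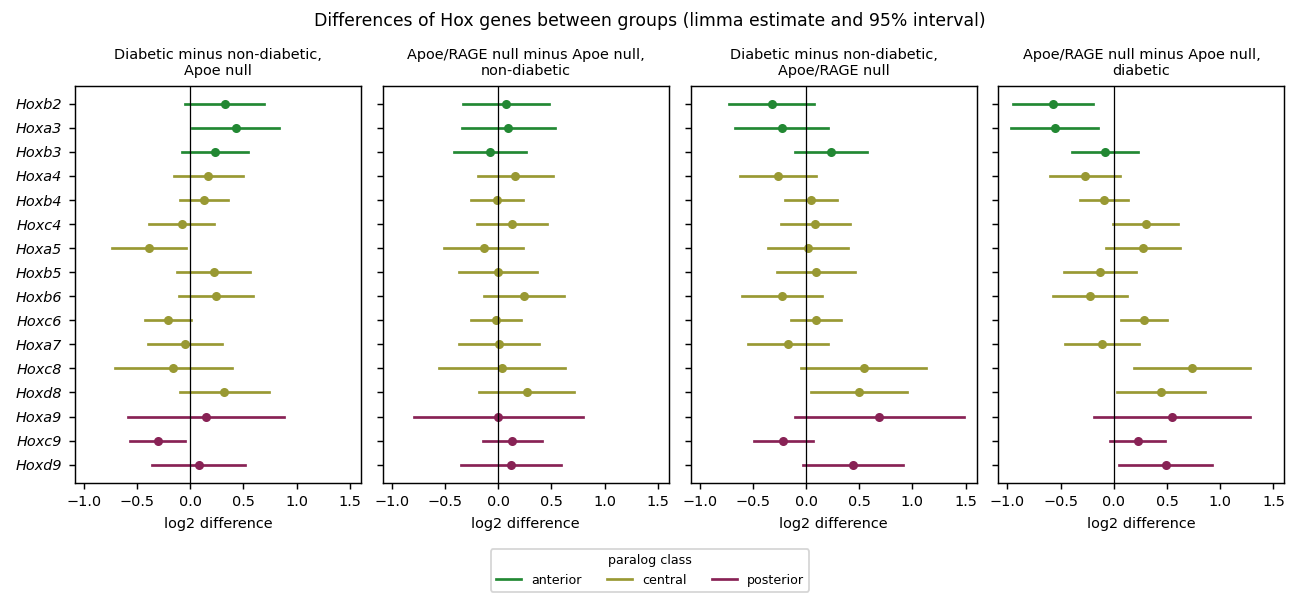
Log2 difference (x axis) of each of the 16 Hox genes above the brightness limit in 4 comparisons of groups, as limma estimate (point) and 95% interval (line), coloured by paralog class. In the right panel, RAGE deletion in diabetes, the 3 anterior genes lie left of 0 and the 3 posterior genes right of 0. No adjusted p was under 0.05 for these genes.

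Hoxb2 patterns the hindbrain and the nerves that arise from it. Hoxb2 read 7.18, 6.68, 7.13 and 7.11 on the diabetic Apoe null arrays and 6.46, 7.09, 6.67 and 6.59 on the non-diabetic Apoe null arrays. Hoxb2 levels with RAGE also deleted were 6.51, 6.02, 6.39 and 6.90 in diabetes and 6.87, 6.72 and 6.74 without it. Replicate 2 was the low array of the diabetic Apoe null group and replicate 10 the lowest of all, and the diabetic groups overlapped only between replicates 2 and 12. Hoxb2 averaged 7.03 ± 0.23 (SD, n = 4) in the diabetic Apoe null group and 6.45 ± 0.36 (SD, n = 4) in diabetic Apoe/RAGE null aortas, a limma difference of -0.57 ± 0.17 (SE; adjusted p = 0.149). Without replicates 9 and 10 it was -0.38 ± 0.19 (SE; adjusted p = 0.338). Diabetes gave 0.32 ± 0.17 (SE; adjusted p = 0.532) in Apoe null and -0.32 ± 0.19 (SE; adjusted p = 0.721) in Apoe/RAGE null aortas, the latter -0.13 ± 0.20 (SE; adjusted p = 0.999) without replicates 9 and 10. The interaction was -0.64 ± 0.26 (SE; adjusted p = 0.675), the smallest unadjusted p of any Hox gene for it, and -0.45 ± 0.25 (SE; adjusted p = 0.618) without replicates 9 and 10.

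Hoxa3 is required for derivatives of the third pharyngeal arch, among them the thymus, the parathyroid and the carotid artery. Hoxa3 read 6.91, 6.24, 6.77 and 6.47 on the diabetic Apoe null arrays and 5.66, 6.55, 6.48 and 5.99 on the non-diabetic Apoe null arrays. Hoxa3 levels with RAGE also deleted were 5.97, 5.88, 6.02 and 6.29 in diabetes and 6.41, 6.31 and 6.07 without it. Replicates 1 and 3 were the highest arrays, replicate 5 was the lowest, and the diabetic groups overlapped only between replicates 2 and 12. Hoxa3 averaged 6.60 ± 0.30 (SD, n = 4) in the diabetic Apoe null group, 6.17 ± 0.42 (SD, n = 4) in non-diabetic Apoe null and 6.04 ± 0.18 (SD, n = 4) in diabetic Apoe/RAGE null aortas. RAGE deletion in diabetes gave a difference of -0.56 ± 0.19 (SE; adjusted p = 0.187), and -0.44 ± 0.24 (SE; adjusted p = 0.388) without replicates 9 and 10. Diabetes in Apoe null aortas gave 0.43 ± 0.19 (SE; adjusted p = 0.455), or 0.25 without replicate 5, and the diabetic values overlapped the non-diabetic ones, which spanned 5.66 to 6.55. The interaction was -0.65 ± 0.28 (SE; adjusted p = 0.675), and -0.54 ± 0.32 (SE; adjusted p = 0.64) without replicates 9 and 10. A second, bright probe set of Hoxa3 followed the first over the 15 arrays (r = 0.85), with differences of -0.42 ± 0.20 (SE; adjusted p = 0.343) for RAGE deletion in diabetes and 0.26 ± 0.20 (SE; adjusted p = 0.669) for diabetes in Apoe null aortas. Of the 2 dim probe sets of Hoxa3, 1 had r = 0.56 with the first and the other r = -0.27.

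Hoxb3, the other anterior gene above the limit, acts in hindbrain and pharyngeal arch patterning. Its differences were 0.24 ± 0.15 (SE; adjusted p = 0.586) for diabetes in Apoe null, 0.23 ± 0.16 (SE; adjusted p = 0.746) for diabetes in Apoe/RAGE null and -0.08 ± 0.15 (SE; adjusted p = 0.859) for RAGE deletion in diabetes. Without replicates 9 and 10 the latter pair became 0.20 ± 0.18 (SE; adjusted p = 0.999) and -0.12 ± 0.17 (SE; adjusted p = 0.806). Anterior genes below the limit were Hoxa2, Hoxb1, Hoxd1 and Hoxd3. Among them Hoxa2, which patterns the second pharyngeal arch, differed by 0.41 ± 0.15 (SE; adjusted p = 0.381) with diabetes in Apoe null aortas, and replicate 1 was its highest array at 4.80.

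Hoxb2, Hoxa3 and Hoxb6 went with the smooth muscle markers from array to array. On deviations from the group means, over 15 arrays, Hoxa3 and the mean of the 8 smooth muscle markers gave r = 0.79 and rho = 0.77, and r = 0.83 without the 2 arrays whose score was farthest from the median. The corresponding values were r = 0.69 and rho = 0.71 for Hoxb2 and r = 0.73 and rho = 0.67 for Hoxb6, and r = 0.65 and 0.62 without the 2 farthest arrays. Hoxb2 ran against the 6 macrophage markers, with r = -0.86 and rho = -0.79, and r = -0.80 without replicate 10. In RAGE deletion in diabetes, where Hoxb2 and Hoxa3 were lower, 8 of 8 smooth muscle markers had a negative difference (median -0.28) and 6 of 6 macrophage markers a positive one (median 0.27), with 0 called. With replicates 9 and 10 left out, 8 of 8 smooth muscle markers were still negative (median -0.34), while 3 of 6 macrophage markers were positive (median 0.01). The largest medians among the marker lists in this comparison were those of skeletal muscle (10 of 10 positive, median 1.99) and of nerve and Schwann cells (5 of 5, median 1.76), with 0 called. Without replicates 9 and 10 these medians were 2.35 and 2.03, again with all markers positive. The smooth muscle score spanned -0.15 to 0.34 in the diabetic Apoe null group and -0.48 to 0.05 in diabetic Apoe/RAGE null aortas. The macrophage score spanned -0.15 to 0.41 and -0.24 to 1.07 in the same groups. The part of these cell types in the Hox differences was not tested. These scores average each marker's level minus its own mean over the arrays, in log2 units, and all points share the arrays and their normalization. Each Hox gene above the limit, and Hoxc10, was set against the score of every marker list and gene list. Those named here and below as going with or against a score are among the larger relations. The share of all genes with relations as large was not computed.

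Hoxa5 acts in the trachea, the lung and the cervical to thoracic vertebrae, and is also known in adipose tissue. Hoxa5 read 6.56, 7.11, 6.42 and 7.10 on the diabetic Apoe null arrays and 7.45, 7.06, 6.94 and 7.29 on the non-diabetic Apoe null arrays. Hoxa5 levels with RAGE also deleted were 7.07, 6.82, 7.16 and 7.23 in diabetes and 6.90, 7.05 and 7.20 without it. Replicates 1 and 3 were the lowest arrays, while replicates 2 and 4 of the same group lay among the rest. Diabetes in Apoe null aortas gave -0.39 ± 0.16 (SE; adjusted p = 0.431) and RAGE deletion in diabetes 0.27 ± 0.16 (SE; adjusted p = 0.463), or 0.40 ± 0.20 (SE; adjusted p = 0.337) without replicates 9 and 10. A second probe set of Hoxa5 followed the first only weakly (r = 0.43) and gave -0.18 ± 0.13 (SE; adjusted p = 0.632) and 0.25 ± 0.13 (SE; adjusted p = 0.376). Hoxa5 went with the 7 brown adipocyte markers, with r = 0.83 and rho = 0.81 on deviations over 15 arrays, and r = 0.78 without the 2 farthest arrays. The brown adipocyte score spanned -1.03 to 0.30 in diabetic and -0.12 to 0.61 in non-diabetic Apoe null aortas, with its lowest values in replicates 1 and 3. Skeletal muscle markers also went with Hoxa5, with r = 0.77 and rho = 0.79. Both relations are those of the chosen Hoxa5 probe set. The second had only r = 0.26 with it on deviations, and its relations to the markers were not computed. The part of fat and muscle attached to the vessel was not tested.

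Hoxc6 marks thoracic levels and limb-level motor neurons. Hoxc6 read 4.97, 5.24, 4.97 and 5.22 on the diabetic Apoe null arrays and 5.40, 5.42, 5.22 and 5.20 on the non-diabetic Apoe null arrays. Hoxc6 levels with RAGE also deleted were 5.25, 5.22, 5.45 and 5.61 in diabetes and 5.26, 5.35 and 5.26 without it. Replicates 1 and 3 were again the lowest, and replicate 12 the highest. RAGE deletion in diabetes gave 0.28 ± 0.10 (SE; adjusted p = 0.209), and 0.43 ± 0.11 (SE; adjusted p = 0.116) without replicates 9 and 10. Its interaction was 0.30 ± 0.15 (SE; adjusted p = 0.703), and 0.45 ± 0.15 (SE; adjusted p = 0.575) without them. Other Hoxc6 probe sets had r = 0.68 and 0.55 with the chosen one over 15 arrays. For RAGE deletion in diabetes with all arrays they gave 0.21 ± 0.14 and 0.18 ± 0.11 (SE, adjusted p = 0.498 and 0.453). Their unadjusted p lay above 0.05 there, and their interactions were 0.10 and 0.31. Hoxc6 went with the 6 white adipocyte markers measured, with r = 0.72 and rho = 0.74, and r = 0.55 without the 2 farthest arrays.

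Hoxb6, expressed in lateral plate and thoracic mesoderm of the embryo, had the smallest unadjusted p of the 16 genes for RAGE deletion without diabetes, at 0.24 ± 0.18 (SE; adjusted p = 1), or 0.12 without replicate 5 and 0.16 without replicate 13. Hoxb6 read 6.41, 5.73, 6.10 and 5.99 on the diabetic Apoe null arrays and 5.43, 6.16, 5.90 and 5.76 on the non-diabetic Apoe null arrays. Hoxb6 levels with RAGE also deleted were 5.73, 5.92, 5.60 and 6.07 in diabetes and 6.24, 6.00 and 5.94 without it. The groups overlapped throughout, with replicate 5 the lowest and replicate 1 the highest array.

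Hoxc8 sets thoracic vertebral identity and is a marker of brachial to thoracic levels. Hoxc8 read 5.44, 6.57, 6.20 and 5.83 on the diabetic Apoe null arrays and 6.45, 6.56, 5.85 and 5.81 on the non-diabetic Apoe null arrays. Hoxc8 levels with RAGE also deleted were 6.26, 6.91, 6.65 and 7.15 in diabetes and 6.56, 6.11 and 5.94 without it. The diabetic Apoe/RAGE null arrays held the 3 highest values of the series, in replicates 10, 11 and 12, and replicate 9 overlapped the other groups. Hoxc8 averaged 6.74 ± 0.38 (SD, n = 4) there and 6.01 ± 0.49 (SD, n = 4) in diabetic Apoe null aortas, a difference of 0.73 ± 0.26 (SE; adjusted p = 0.197). Leaving out replicates 9 and 10 gave 0.89 ± 0.30 (SE; adjusted p = 0.176). Diabetes in Apoe/RAGE null aortas gave 0.54 ± 0.28 (SE; adjusted p = 0.699), or 0.70 ± 0.32 (SE; adjusted p = 0.999) without those 2 arrays. The range over the 15 arrays, 1.71 in log2 units or 3.28-fold, was the widest of the 16 genes, and the groups other than diabetic Apoe/RAGE null spanned most of it.

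Hoxd8, a central gene of the Hoxd cluster, is expressed in the trunk and the urogenital tract. Hoxd8 read 4.53, 5.30, 4.79 and 4.52 on the diabetic Apoe null arrays and 4.50, 4.46, 4.24 and 4.65 on the non-diabetic Apoe null arrays. Hoxd8 levels with RAGE also deleted were 5.14, 5.75, 5.11 and 4.91 in diabetes and 4.95, 4.45 and 4.79 without it. Replicate 10 was the highest array and replicate 2 the next, and all diabetic Apoe/RAGE null arrays exceeded the non-diabetic Apoe null ones. RAGE deletion in diabetes gave 0.44 ± 0.19 (SE; adjusted p = 0.301) and diabetes in Apoe/RAGE null aortas 0.50 ± 0.21 (SE; adjusted p = 0.674). Without replicates 9 and 10 these were 0.23 ± 0.21 (SE; adjusted p = 0.644) and 0.28 ± 0.22 (SE; adjusted p = 0.999). RAGE deletion without diabetes gave 0.27 ± 0.21 (SE; adjusted p = 1), with 0.16 without replicate 13 and 0.41 without replicate 14. A second Hoxd8 probe set gave r = 0.93 with the first.

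Hoxd9 acts with its paralogs at lumbosacral and limb levels. Hoxd9 read 4.67, 4.71, 4.55 and 4.58 on the diabetic Apoe null arrays and 4.80, 4.56, 4.29 and 4.54 on the non-diabetic Apoe null arrays. Hoxd9 levels with RAGE also deleted were 4.75, 5.91, 4.79 and 5.01 in diabetes and 4.63, 4.48 and 4.91 without it. Replicate 10 stood at 5.91, with the next array at 5.01, and the diabetic groups did not overlap: the lowest Apoe/RAGE null value was 4.75 and the highest Apoe null value 4.71. Non-overlap of this comparison was found for 2 of 33 Hox genes, Hoxd9 and the dim Hoxb9, where 7.73% of all genes had it; without replicates 9 and 10 it was 10 of 33 and 28% of all genes. RAGE deletion in diabetes gave 0.49 ± 0.20 (SE; adjusted p = 0.277), and 0.27 ± 0.14 (SE; adjusted p = 0.366) without replicates 9 and 10. Diabetes in Apoe/RAGE null aortas gave 0.44 ± 0.22 (SE; adjusted p = 0.694), or 0.23 ± 0.15 (SE; adjusted p = 0.999) without those 2 arrays.

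The lymphocyte score was also highest in replicate 10, at 2.68, with at most 0.74 on the other arrays. Hoxd9 went with it, with r = 0.87 and rho = 0.71 on deviations over 15 arrays, and r = 0.42 without replicate 10. Hoxd8 gave r = 0.78 and rho = 0.66, and r = 0.69 without it. With the endothelial markers Hoxd8 gave r = 0.51, and r = 0.81 without replicate 10. Replicate 10 also had the highest macrophage score, at 1.07. Of the 6 lymphocyte markers measured, Cd79a and Ms4a1 had means below the brightness limit. The part of lymphoid tissue, endothelium or macrophages in these values was not tested.

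Hoxa9, best known in blood stem cells, is active at thoracic and more posterior levels. Hoxa9 read 4.83, 6.42, 5.92 and 5.10 on the diabetic Apoe null arrays and 5.28, 6.10, 5.09 and 5.22 on the non-diabetic Apoe null arrays. Hoxa9 levels with RAGE also deleted were 5.61, 6.25, 6.14 and 6.45 in diabetes and 6.09, 4.91 and 5.27 without it. Values above 6 stood in every group, in replicates 2, 6, 10, 11, 12 and 13, while the lowest arrays of the groups read 4.83, 5.09, 5.61 and 4.91 in the order above. RAGE deletion in diabetes gave 0.54 ± 0.34 (SE; adjusted p = 0.493) and diabetes in Apoe/RAGE null aortas 0.69 ± 0.37 (SE; adjusted p = 0.711), with overlapping groups in both. Without replicates 9 and 10 these were 0.73 ± 0.42 (SE; adjusted p = 0.424) and 0.87 ± 0.45 (SE; adjusted p = 0.999). The within-group SD of Hoxa9, 0.55, lay at the 96.9th percentile of the 11135 genes above the limit. A second Hoxa9 probe set spanned 0.49 log2 units and followed the first weakly (r = 0.34), and its differences were 0.08 ± 0.11 (SE; adjusted p = 0.798) for RAGE deletion in diabetes and -0.01 ± 0.12 (SE; adjusted p = 0.991) for diabetes in Apoe/RAGE null aortas. The Hoxa9 differences above were thus those of 1 probe set.

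Hoxc9 specifies thoracic level in motor neurons. Hoxc9 read 4.51, 4.80, 4.27 and 4.29 on the diabetic Apoe null arrays and 4.88, 4.77, 4.64 and 4.81 on the non-diabetic Apoe null arrays. Hoxc9 levels with RAGE also deleted were 4.53, 4.61, 4.81 and 4.83 in diabetes and 4.81, 4.80 and 5.10 without it. Replicates 3 and 4 were the lowest arrays and replicate 15 the highest. Diabetes in Apoe null aortas gave -0.31 ± 0.12 (SE; adjusted p = 0.405), the smallest unadjusted p among the 16 genes for that comparison, with replicate 2 inside the range of the controls. RAGE deletion without diabetes gave 0.13 ± 0.13 (SE; adjusted p = 1), with 0.03 without replicate 15 and 0.09 without replicate 7. Hoxc9 went with the white adipocyte markers, with r = 0.85 and rho = 0.78, and r = 0.79 without the 2 farthest arrays. That score spanned -0.66 to 0.04 in diabetic and -0.00 to 0.27 in non-diabetic Apoe null aortas. Of the 6 white adipocyte markers, 6 had a negative difference with diabetes in Apoe null aortas (median -0.48), with 0 called, and the part of fat in the Hoxc9 difference was not tested.

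Hoxc10, a lumbar-level gene also known in subcutaneous fat, lay below the brightness limit in the mean and above it in 3 arrays. Hoxc10 read 3.04, 3.65, 4.01 and 2.64 on the diabetic Apoe null arrays and 3.15, 3.62, 2.67 and 3.28 on the non-diabetic Apoe null arrays. Hoxc10 levels with RAGE also deleted were 3.48, 4.50, 4.54 and 4.38 in diabetes and 3.70, 2.94 and 3.39 without it. Replicates 10, 11 and 12 were the high arrays, as for Hoxc8. RAGE deletion in diabetes gave 0.89 ± 0.31 (SE; adjusted p = 0.19) and diabetes in Apoe/RAGE null aortas 0.88 ± 0.33 (SE; adjusted p = 0.674). After removal of replicates 9 and 10 these were 1.12 ± 0.34 (SE; adjusted p = 0.143) and 1.11 ± 0.36 (SE; adjusted p = 0.999). The Hoxb9 difference for RAGE deletion in diabetes was 0.26 ± 0.08 (SE; adjusted p = 0.155), or 0.25 ± 0.10 (SE; adjusted p = 0.25) without replicates 9 and 10, at levels under the limit on all 15 arrays.

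**Figure D3:**
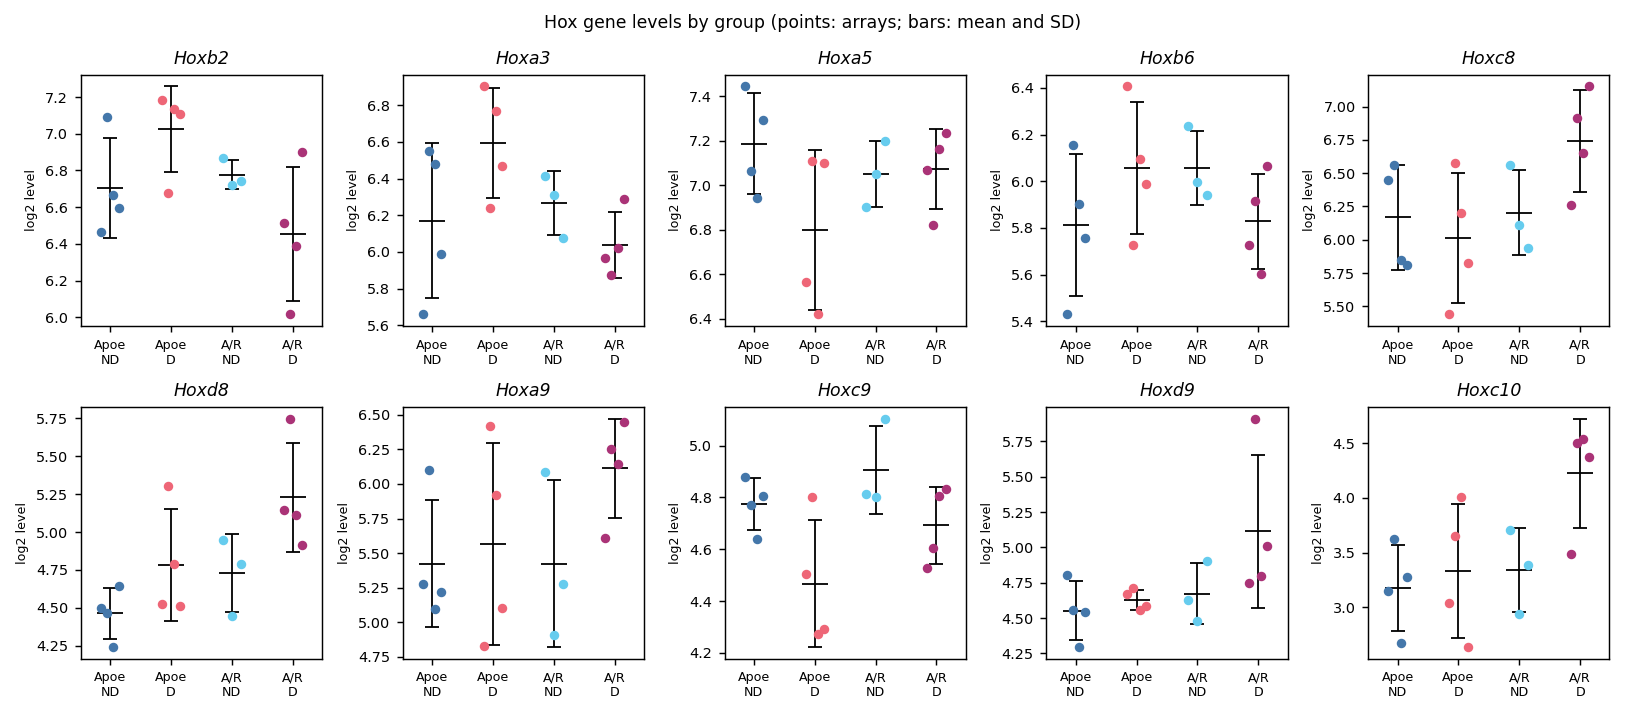
Log2 level (y axis) of 10 Hox genes on each array (points) with the mean and SD of each group (bars). Apoe ND and Apoe D are non-diabetic and diabetic Apoe null aortas, and A/R ND and A/R D the same for Apoe/RAGE null aortas. Hoxd9 has 1 array, replicate 10 at 5.91, far above the rest, and Hoxc8 and Hoxc10 have 3 high arrays in the diabetic Apoe/RAGE null group.

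By class, RAGE deletion in diabetes gave negative differences for 3 of 3 anterior genes above the limit (median -0.56), positive ones for 3 of 3 posterior genes (median 0.49), and 5 of each sign for the 10 central genes (median 0.09). Of the 11135 genes above the limit, 4963 were positive, with a median of -0.03. By cluster, 5 of 5 Hoxb genes were negative (median -0.13), and 4 of 4 Hoxc genes (median 0.29) and 2 of 2 Hoxd genes (median 0.47) were positive. The Hoxa genes were split, with 2 of 5 positive. With replicates 9 and 10 left out, the signs by class and cluster were the same, with medians of -0.38 for anterior, 0.35 for posterior, 0.11 for central, -0.22 for Hoxb, 0.48 for Hoxc and 0.25 for Hoxd genes. Of the 16 Hox genes above the limit, 4 then had an unadjusted p under 0.05, and all were Hoxc genes. Among all genes above the limit 29.1% did. With all arrays 6 of the 16 had one (2 Hoxc, 2 Hoxd, 1 Hoxa and 1 Hoxb gene), against 25.0% of all genes above the limit. For diabetes in Apoe null aortas, which shares the diabetic Apoe null arrays, 3 of 3 anterior genes were positive (median 0.32) and 4 of 4 Hoxc genes negative (median -0.18). For RAGE deletion without diabetes all class medians lay between 0.02 and 0.12.

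The mean of the posterior genes minus that of the anterior genes, each gene centred on its own mean, ran from -0.88 in replicate 1 to 0.82 in replicate 10. Within the diabetic Apoe null group it spanned -0.88 to 0.28, and within the diabetic Apoe/RAGE null group 0.14 to 0.82, so that both overlapped. Without replicates 9 and 10, the latter group read 0.39 and 0.35 in replicates 11 and 12, and the groups did not overlap. With these 2 arrays left in the group, 28% of all genes and 35.8% of genes above the limit did not overlap either. Posterior minus central genes gave -0.11 ± 0.19 (SD, n = 4) in the diabetic Apoe null group and 0.19 ± 0.25 (SD, n = 4) in diabetic Apoe/RAGE null aortas. The difference between these groups was 0.28 without replicates 9 and 10 and 0.19 without replicate 10 alone. With all arrays it was smaller when all Hox genes entered the score. It was negative with paralog groups 10 to 13, all below the brightness limit, as posterior (values in the section on processing). In non-diabetic aortas the same measure was -0.06 ± 0.11 (SD, n = 4) with RAGE and -0.04 ± 0.19 (SD, n = 3) without it. Replicate 10 was the highest array for both scores.

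Hox genes varied more between aortas of 1 group than most genes did. The median within-group SD was 0.25 for the 16 Hox genes and 0.18 for all 11135 genes above the limit. Hoxa9 and Hoxc8 had the largest within-group SDs, at the 96.9th and 92.7th percentile of those genes, and Hoxc6 and Hoxb4 the smallest, at percentiles 27.3 and 32.9. These SDs are of 1 probe set per gene, and the second Hoxa9 probe set spanned only 0.49 log2 units over the arrays.

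From array to array, the strongest pairs of Hox genes joined genes of different clusters, while other strong pairs lay within 1 cluster. The strongest pair of the 120, on deviations from group means over 15 arrays, was Hoxa9 with Hoxc8, from different clusters (r = 0.88 and rho = 0.88, and r = 0.83 without the 2 arrays farthest from the median of Hoxa9). Hoxa3 with Hoxb6 gave r = 0.87 and rho = 0.82, and r = 0.79 without the 2 arrays farthest from the median of Hoxa3. Hoxa3 with Hoxb2 gave r = 0.75 and rho = 0.74, and r = 0.68 without the 2 arrays farthest from the median of Hoxa3. These 2 sets of genes differ in what they went with: Hoxa9 and Hoxc8 had r = -0.14 and -0.17 with the smooth muscle score, while the Hoxa3 set followed it as given above. Hoxc4 with Hoxc8 gave r = 0.73 and rho = 0.80, and r = 0.67 without the 2 arrays farthest from the median of Hoxc4. Hoxc10 also went with Hoxa9 (r = 0.81 and rho = 0.88) and with Hoxc8 (r = 0.68 and rho = 0.70). All these Hoxa9 relations are those of its chosen probe set. The second Hoxa9 probe set had r = 0.43 with the chosen one on deviations, and its pairs were not computed. The neighbours Hoxd8 and Hoxd9 gave r = 0.64 and rho = 0.61, and r = 0.39 without the 2 arrays farthest from the median of Hoxd8, weaker without those arrays. Hoxa3 and Hoxa5, of the same cluster, ran in opposite senses by their chosen probe sets (r = -0.66 and rho = -0.60, and r = -0.61 without the 2 arrays farthest from the median of Hoxa3). The second, bright Hoxa5 probe set had only r = 0.26 with the chosen one on deviations. Its relation to Hoxa3 was not computed, so the opposite movement is that of 1 Hoxa5 probe set.

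Over all pairs, the median r was 0.25 for 27 pairs of 1 cluster, of which 23 were positive. It was 0.05 for 93 pairs of different clusters, of which 56 were positive. These medians were 0.15 and -0.00 without replicate 6, and the second rose to 0.11 without replicate 9. For all gene pairs above the limit the median was 0.01. Pairs whose paralog numbers differed by 0 or 1 had a median of 0.19, pairs that differed by 2 or 3 a median of 0.18, and pairs that differed by 4 or more a median of 0.00. These are descriptions over 15 arrays, which share their normalization, and no p is given.

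**Figure D4:**
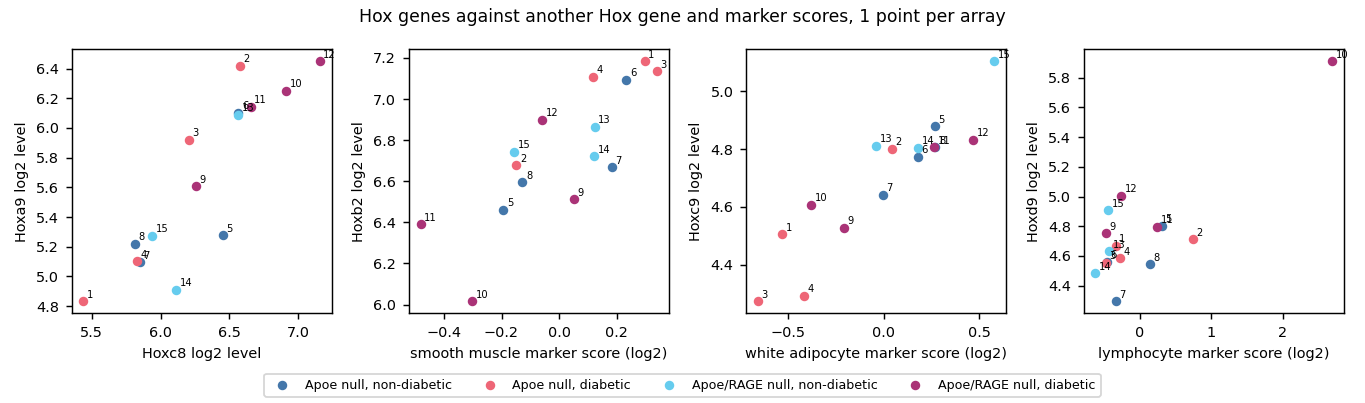
Each point is 1 array, numbered by replicate and coloured by group. The first panel plots Hoxa9 against Hoxc8 (log2 levels), and the others plot Hoxb2, Hoxc9 and Hoxd9 (log2 levels) against the smooth muscle, white adipocyte and lymphocyte marker scores (log2). Arrays of every group lie along the first panel's diagonal, and replicate 10 stands apart in the last. Each Hox gene is shown by its chosen probe set only.

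Genes that act with or on Hox genes were read from lists. Hox proteins bind DNA with TALE cofactors (Pbx, Meis and Pknox), and 0 of the 8 measured passed the test in any comparison. For RAGE deletion in diabetes, Pknox2 differed by -0.47 ± 0.13 (SE; adjusted p = 0.119) and Meis1 by 0.41 ± 0.12 (SE; adjusted p = 0.144), with 5 of 8 positive and a median of 0.04. After removal of replicates 9 and 10 these were -0.51 ± 0.16 (SE; adjusted p = 0.158) and 0.27 ± 0.14 (SE; adjusted p = 0.343), with 3 of 8 positive and a median of -0.07. Of 34 measured regulators of Hox transcription (Polycomb and Trithorax proteins, Cdx factors and the retinoic acid pathway), 0 passed as higher and 1 as lower, in RAGE deletion in diabetes, where 0.0275% of all genes passed as higher and 0.286% as lower. This was Cyp26b1, an enzyme that degrades retinoic acid, the signal that activates low-numbered Hox genes in the embryo. Cyp26b1 read 6.38, 5.91, 6.39 and 6.25 on the diabetic Apoe null arrays and 5.44, 5.55, 5.56 and 5.56 on the non-diabetic Apoe null arrays. Cyp26b1 levels with RAGE also deleted were 5.76, 5.41, 5.28 and 5.49 in diabetes and 5.59, 5.34 and 5.10 without it. All 4 diabetic Apoe null arrays exceeded the other 11, and the difference was -0.75 ± 0.13 (SE; adjusted p = 0.0432). Diabetes in Apoe null aortas gave 0.70 ± 0.13 (SE; adjusted p = 0.222) from the same diabetic Apoe null arrays. With replicates 9 and 10 left out, the difference for RAGE deletion in diabetes was -0.84 ± 0.15 (SE; adjusted p = 0.0678), and the call was lost.

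Of the 3 non-coding and antisense genes of the clusters with a probe set, out of 20 listed, 1 passed as lower and 0 as higher in RAGE deletion in diabetes, beside the same 0.286% and 0.0275% of all genes. It was Hoxb5os, a non-coding RNA whose annotated span covers Hoxb5 and Hoxb6; the files do not say which strand its probes read. Hoxb5os read 6.67, 6.48, 6.74 and 6.75 on the diabetic Apoe null arrays and 6.77, 6.43, 6.71 and 6.15 on the non-diabetic Apoe null arrays. Hoxb5os levels with RAGE also deleted were 5.88, 5.92, 5.85 and 5.80 in diabetes and 6.11, 6.16 and 6.27 without it. The diabetic groups did not overlap, and the 7 Apoe/RAGE null arrays lay at or below 6.27, with replicate 8 the only Apoe null array under that. The difference was -0.80 ± 0.12 (SE; adjusted p = 0.0356), and -0.83 ± 0.15 (SE; adjusted p = 0.0678) without replicates 9 and 10, where the call was lost. RAGE deletion without diabetes gave -0.34 ± 0.13 (SE; adjusted p = 1). The neighbouring coding genes differed by -0.13 ± 0.16 (SE; adjusted p = 0.767) for Hoxb5 and -0.23 ± 0.16 (SE; adjusted p = 0.56) for Hoxb6 in diabetes, and by -0.26 ± 0.20 (SE; adjusted p = 0.575) and -0.22 ± 0.21 (SE; adjusted p = 0.666) without replicates 9 and 10. Hoxb5os had r = 0.16 with Hoxb5 and -0.13 with Hoxb6 on deviations. Hoxd3os1, an antisense gene of the Hoxd cluster, differed by 0.76 ± 0.21 (SE; adjusted p = 0.119), or 0.67 ± 0.26 (SE; adjusted p = 0.228) without replicates 9 and 10.

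The calls of Hoxb5os and Cyp26b1 changed when single arrays were left out. Each was lost, at an adjusted p of 0.05 or above, when 1 of 9 arrays was left out: replicate 1, 3, 4, 9, 10, 11, 12, 14 or 15 for Hoxb5os and 1, 3, 4, 6, 10, 11, 12, 14 or 15 for Cyp26b1. In those fits the differences lay between -0.81 and -0.77 for Hoxb5os and between -0.75 and -0.68 for Cyp26b1. Replicates 6, 14 and 15 are not in the groups compared and act through the shared spread and the adjustment.

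**Figure D5:**
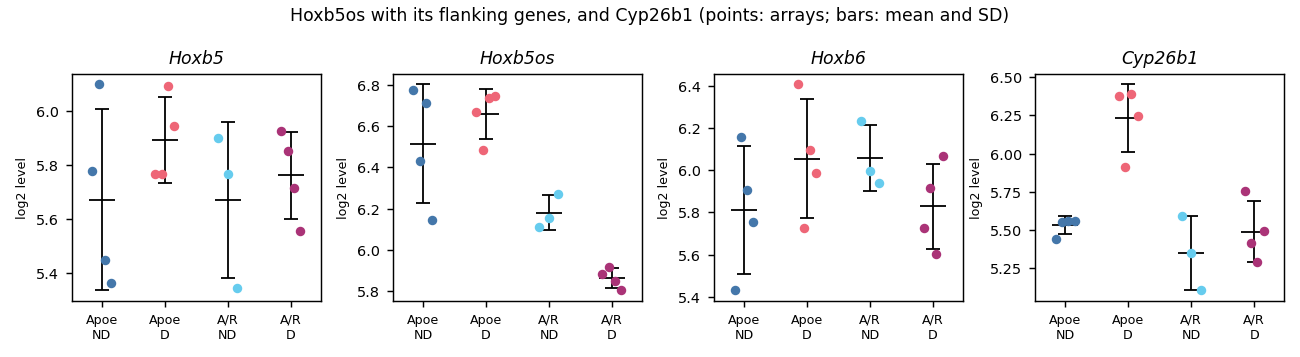
Log2 level (y axis) of Hoxb5, Hoxb5os, Hoxb6 and Cyp26b1 on each array (points) with the mean and SD of each group (bars), with groups as in the plot of 10 Hox genes: ND non-diabetic, D diabetic, A/R Apoe/RAGE null. Hoxb5os is lowest in the 4 diabetic Apoe/RAGE null arrays, at 5.80 to 5.92, and Cyp26b1 highest in the 4 diabetic Apoe null arrays, at 5.91 to 6.39.

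Neighbours of the clusters and ParaHox genes were also read, and 0 of 16 passed. Lnpk, which lies beside the Hoxd cluster and shapes the endoplasmic reticulum, differed by -0.51 ± 0.14 (SE; adjusted p = 0.106) for RAGE deletion in diabetes and by 0.50 ± 0.14 (SE; adjusted p = 0.31) for diabetes in Apoe null aortas, with no overlap of the groups in either. After removal of replicates 9 and 10 the first was -0.59 ± 0.15 (SE; adjusted p = 0.114). Of 28 measured transcription factors of the heart, outflow tract and arch, 0 passed. Foxc2, which acts in arch artery formation, differed by -0.68 ± 0.17 (SE; adjusted p = 0.0921) for RAGE deletion in diabetes, and Tbx18 by -0.77 ± 0.21 (SE; adjusted p = 0.109). Tbx3 differed by 0.74 ± 0.20 (SE; adjusted p = 0.116). With replicates 9 and 10 left out, these were -0.74 ± 0.21 (SE; adjusted p = 0.134), -0.83 ± 0.25 (SE; adjusted p = 0.142) and 0.61 ± 0.25 (SE; adjusted p = 0.241). Tbx1, the arch gene of DiGeorge syndrome, differed by 0.69 ± 0.13 (SE; adjusted p = 0.457) with diabetes in Apoe/RAGE null aortas, or 0.52 ± 0.14 (SE; adjusted p = 0.999) without them.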

How the data were processed

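Aortic RNA was hybridized to Affymetrix mouse arrays, 1 for each of 15 mice, per the labels. The authors deposited log2 values from RMA, per the submitters' processing notes. The series' design text says that arrays of each genotype and disease state were normalized together; the RMA version is not given in the sources used here. Values were used as deposited. Of 45101 rows, 64 control probe sets were left out. Gene names came from the array annotation of 2016, updated by Entrez ID for 34741 of 34945 probe sets with 1 gene.

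Group means were fitted to all 15 arrays with limma (version 3.58.1, R 4.3.3), variances were moderated by empirical Bayes, and p-values were adjusted by Benjamini-Hochberg over 45037 probe sets at 0.05. Intervals are at 95%. The fit was tested on simulated data. Nothing beyond 1 array per mouse describes the replicates, and the number of arrays limits the precision. The Hox genes, lists and tests were chosen with earlier results of these data known. By the rule for named genes, all Hox genes could be named, values on every array were given for those above the brightness limit with the smallest p per comparison or the widest range, and up to 4 members of each other list with the smallest p per comparison were eligible; Hoxc10, Hoxb9 and Hoxa2 were added after their values were seen. Relations without replicate 10, pairs with Hoxc10 and Hoxb5os, list medians without replicates 9 and 10 and motif shares over the 21 windows were also chosen after seeing the data. Alternatives changed the groups in the fit, normalization, array weights, dim limit, probe sets and arrays left out. Promoter sequences came from RefSeq (GRCm38.p6). Figures were drawn with matplotlib 3.10.9.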

Additional observations from a re-analysis of the deposited data

Results flagged for a closer look

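Each of the following values lay far from the other arrays of its group of 4, by Dixon's test at the 95% level. Hoxb2 in diabetic Apoe null replicate 2 read 6.68, with the other 3 arrays between 7.11 and 7.18. Hoxc10 in diabetic Apoe/RAGE null replicate 9 read 3.48, with the others between 4.38 and 4.54. Cyp26b1 in non-diabetic Apoe null replicate 5 read 5.44, with the others between 5.55 and 5.56, a gap smaller than the spread of the other groups. Of 57 groups examined, 3 (5.26%) held such an array, and chance alone gives about 5%.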

How the results depend on the processing

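No Hox gene passed an adjusted p of 0.05 under any alternative run. Of 438 values for 17 named gene differences under alternatives, 413 kept direction and side of the threshold, 22 lost a call (all of Hoxb5os and Cyp26b1) and 3 turned sign. The 3 were Hoxa3 by 1 of its 2 dim probe sets (the other kept the signs), at -0.18 for diabetes in Apoe null, 0.12 for RAGE deletion in diabetes and 0.28 for the interaction. Fitted on the compared groups alone, the adjusted p was 0.0665 for Hoxb5os and 0.107 for Cyp26b1, over ranges of 0.0162 to 0.15 and 0.0146 to 0.162 across alternatives. Counts of probe sets passing moved as follows. For diabetes in Apoe null (0), 5 passed with only the compared groups, 7 with array weights, 76 by B above 0, and 1 each with quantile normalization, without probe sets under the median or under the 75th percentile, with 1 probe set per gene, and without suffixed probe sets; leaving out 1 array gave 0 to 3. For RAGE deletion without diabetes (0), 5 passed with only the compared groups, 9 without replicates 9 and 10, and 0 to 0 leaving out 1 array. For diabetes in Apoe/RAGE null (0), 12 passed with only the compared groups, 4 by B above 0, and 0 to 49 leaving out 1 array. For RAGE deletion in diabetes (110), 0 passed with only the compared groups, 53 with array weights, 253 and 513 without probe sets under the median or 75th percentile, 72 with 1 probe set per gene, 22 without replicates 9 and 10, 321 by B above 0, and 0 to 931 leaving out 1 array. The interaction stayed at 0. The posterior minus central score differed by 0.0757 for RAGE deletion in diabetes with all Hox genes. With groups 10 to 13 as posterior it differed by -0.0753, and by -0.0086 for diabetes in Apoe/RAGE null. Leaving out 1 array gave -0.13 to 0.01, -0.05 to 0.13, 0.12 to 0.33 and 0.19 to 0.39 in the order of the comparisons. The score over genes above the 75th percentile could not be computed, as no posterior gene lies there. The cause of these shifts was not tested. No paired analysis was possible because replicate numbers run from 1 to 15 across the series and no number is shared between groups. Differences in the 17 Hox genes under the brightness limit are limited by signal over background.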

Other observations

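Some relations between Hox genes and lists fell outside the comparisons. On deviations from group means over 15 arrays, Hoxb5 went with the score of the 8 TALE cofactors (r = 0.77 and rho = 0.81) and Hoxc9 against it (r = -0.80 and rho = -0.79). Hoxa4 ran against the score of 2 erythrocyte markers (r = -0.82 and rho = -0.82), of which 1 lay below the brightness limit. Hoxa7 ran against the 6 airway markers (r = -0.71 and rho = -0.59), and r was -0.35 without the 2 arrays with the most distant scores. A probe set shared by Hoxb8 and Hoxb7 read 4.58 to 5.33, and both probe sets shared by Hoxd4 and Hoxd3 read at most 3.73. The second Hoxb4 probe set ran against the chosen one (r = -0.36).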
